A study of Homo sapiens with 6 samples.

Results

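The genes described here are MUL1, MFN1, MFN2, OPA1, DNM1L, FIS1, MFF, PINK1, BNIP3 and BNIP3L, a set of 10 genes of mitochondrial dynamics and mitophagy out of 58395 genes in the deposited count table. They were listed by symbol, and the set was selected on the fold change and p-value of the ligase gene MUL1, already known to be among the clearest lower genes after CRP2 knockdown in these same libraries. The MUL1 values are therefore a description and carry no test. RNA was sequenced from MDA-MB-231 cells, a line of invasive breast adenocarcinoma cells. The siCRP2 group was transfected with an siRNA against CSRP2, the gene of the actin-bundling LIM protein CRP2, and the siCTR group with a non-targeting siRNA. Each group has 3 libraries, prepared from poly(A)-selected RNA 65 h after transfection by the sample labels (the study's methods give a slightly later time), and no agent other than the siRNA and its transfection reagent is named. A single siRNA stands for the knockdown, so the loss of CRP2 and any other action of that siRNA cannot be told apart in these libraries. The study used the comparison to ask how CRP2 affects gene expression in invasive cells.

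Library totals ran from 18346442 to 39115778 counts in siCRP2 and from 17336798 to 25321830 in siCTR. Column names carry a code (0412, 0611 or 1311) that a library of each group shares, and libraries are named here by group and code. Values per library are given in the order 0412, 0611, 1311, in counts per 1000000 library counts (CPM) after scaling by edgeR's trimmed mean of M values (TMM). CSRP2 had 2.17, 1.78 and 1.89 CPM in siCRP2, against 13.7, 11.7 and 11.4 CPM in siCTR, a log2 fold change of -2.66 (SE 0.178, adjusted p = 2.4e-08). Of the genes tested, 11.5% were lower and 12.5% higher in siCRP2 at an adjusted p under 0.05. The median log2 fold change of all 23806 genes tested was -0.02. The transcripts of VIM, CD44, CAV1, FN1 and the keratins KRT7, KRT8, KRT18 and KRT19 were abundant in every library, but SPARC, of the same mesenchymal list, had only 1.408 to 7.504 CPM. AXL, also of that list, averaged 264 CPM in siCRP2 and 549 CPM in siCTR (log2 fold change -1.06, adjusted p = 3.1e-06). Of the luminal markers, ESR1, PGR, FOXA1 and KRT20 were at or near 0 CPM, while GATA3 had 12.13 to 17.98 CPM. Leukocyte and endothelial markers summed to 14.7 to 18.5 CPM in siCRP2 and 39.7 to 56.1 CPM in siCTR, and CD3E, PTPRC and VWF among them stayed under 1 CPM. Most of the sum came from CD14 and PECAM1. CD14 averaged 9.70 CPM in siCRP2 and 34.1 CPM in siCTR, and PECAM1 5.62 CPM in siCRP2 and 15.6 CPM in siCTR. The part of those markers in the results was not tested.

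Mitochondria form a network that is constantly joined and cut. The mitofusins MFN1 and MFN2 fuse outer membranes and OPA1 fuses inner membranes, while the dynamin-related GTPase DNM1L (DRP1), recruited by receptors such as MFF and FIS1, constricts and divides the organelle. Damaged mitochondria are removed by autophagy, either through the kinase PINK1, which marks them for ubiquitin ligases, or through the outer membrane receptors BNIP3 and BNIP3L (NIX), whose genes are known for their induction by hypoxia. MUL1 is a ubiquitin and SUMO ligase of the outer membrane that acts on mitofusins and on DNM1L.

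The sequences shown are stretches of 3' UTR, given because MUL1 holds the same 7-letter word at 2 places there. An earlier search of the same fold changes had picked out the word GCCTCAC as frequent in the 3' UTRs of lower genes, so its shares are a description of that choice and no independent evidence. The word was sought on the sense strand of the canonical transcript of each member, in GRCh38 with GENCODE 44. It occurred at 2 places in the 1242-base 3' UTR of MUL1, once in the 3' UTR of MFN1 (2877 bases) and once in that of OPA1 (3211 bases), and nowhere in the transcripts of the other 7 members. The sites are written 5' to 3' in windows of 30 bases, with the word in capitals.
MUL1 site 1, chr1:20500452-20500481, minus strand, 221 bases after the stop codon: agcctcatcagaGCCTCACcctgggaggat
MUL1 site 2, chr1:20499827-20499856, minus strand, 846 bases after the stop codon: cctagtgtcctgGCCTCACagcttccttgc
MFN1 site, chr3:179393156-179393185, plus strand, 1109 bases after the stop codon: gctggtggaaatGCCTCACcagtttcctct
OPA1 site, chr3:193697083-193697112, plus strand, 2495 bases after the stop codon: tggtgcttcccaGCCTCACaatgtgggaat

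The background was 11751 protein-coding genes that averaged 1 CPM or more and whose 3' UTR was 50 bases or longer. The word was in 11.3% of their UTRs and in 1.66% at 2 or more places. Among 3' UTRs of 1000 to 1500 bases, the length class of MUL1, 0.677% held it at 2 or more places. Among those of 2500 to 3500 bases, which include MFN1 and OPA1, 16.8% held it at least once. The word was in 26.5% of 3' UTRs of genes called lower, 5.13% of those called higher and 9.12% of those called neither way. MUL1, with 2 sites, was lower in siCRP2, while MFN1 and OPA1, with 1 site each, had log2 fold changes of 0.19 and -0.02.

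MUL1 (ENSG00000090432, chr1:20499448-20508151, minus strand) had 10.1, 13.2 and 10.4 CPM in siCRP2, against 50.8, 51.8 and 57.7 CPM in siCTR. These are 191 to 408 counts per siCRP2 library and 890 to 1286 per siCTR library. The groups lay far apart. On the log2 scale the siCRP2 libraries spanned 0.384, with 0611 the highest, and the siCTR libraries 0.185. The mean was 11.2 ± 1.69 CPM in siCRP2 and 53.5 ± 3.75 CPM in siCTR (SD, n = 3 each), which left 21.0% of the siCTR level by the fitted fold change. The log2 fold change was -2.25 (SE 0.124). Between libraries of the same code the difference was -2.33 for 0412, -1.97 for 0611 and -2.47 for 1311. By p-value MUL1 stood at place 9 among all genes tested, which restates how the set was picked. With MUL1 itself counted, 177 genes were called lower by at least as large a fold. Over the 13 alternative settings its log2 fold change ran from -2.41 to -2.19. In bulk RNA, fewer cells that carry a transcript and less of it per cell cannot be told apart.

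**Figure D1:**
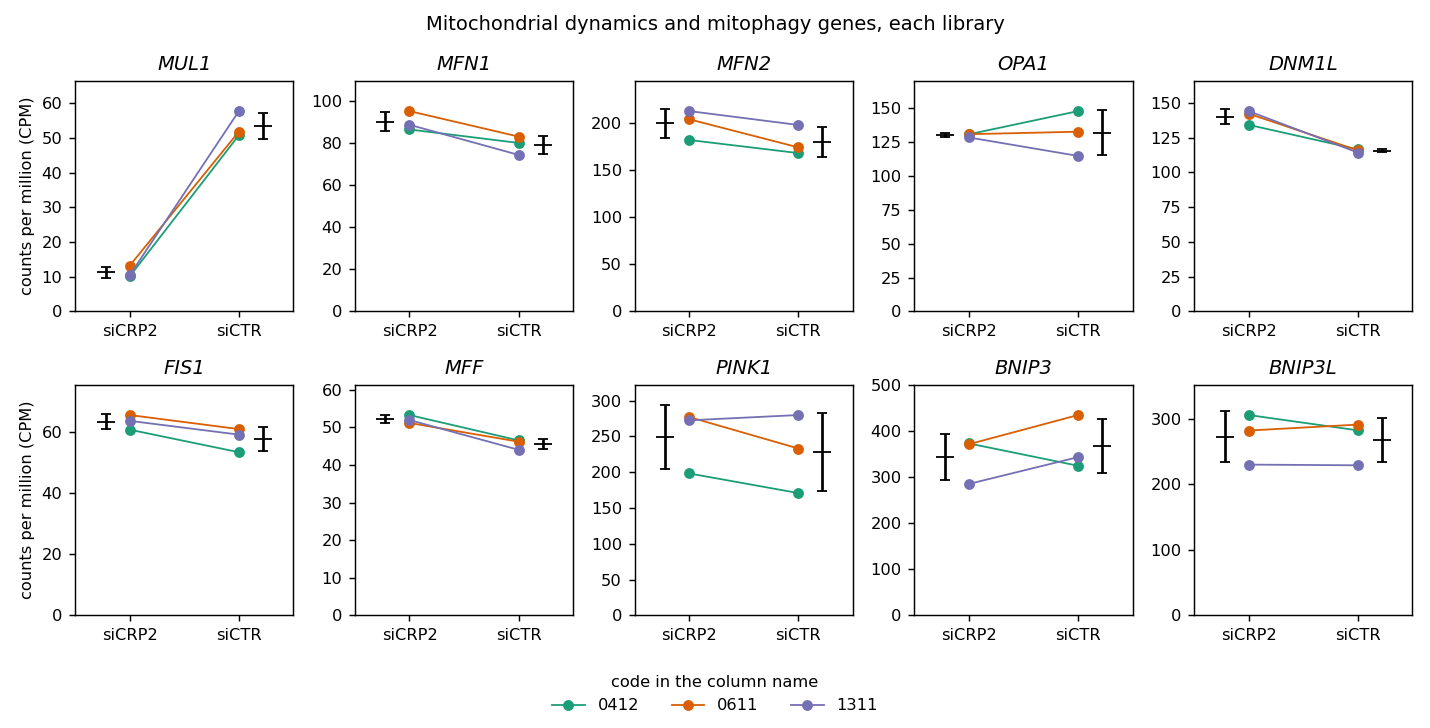
Level of each of the 10 genes in each library, in CPM on axes that start at 0, with siCRP2 on the left and siCTR on the right of each panel. Lines join libraries that share a code, and the black bars beside the points are the mean ± SD of a group (n = 3). MUL1 lies between 10.1 and 13.2 CPM in siCRP2 and between 50.8 and 57.7 CPM in siCTR, and none of the other 9 genes has groups set so far apart.

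The other 9 genes had small differences. Their log2 fold changes ran from -0.10 to 0.28 with a median of 0.13, 7 being positive and 2 negative. All 10 genes were tested, 1 being called lower (MUL1, by which the set was picked) and 1 higher (DNM1L), beside 11.5% and 12.5% of all genes. Since the set was named from this contrast, nothing is read from those counts. Apart from MUL1, 3 genes (MFN1, DNM1L and MFF) were higher in every siCRP2 library than in any siCTR library and none was lower in that way, while 19.4% of all genes were separated upward and 18% downward. Libraries of the same code deviated together from their group means, so the genes were also fitted with that code as a block. For the members, the block fit uses a spread shared over genes. Its intervals and p-values therefore do not measure how far each gene's own pairs of libraries vary. Block p-values given below for genes outside the set are not read as such a measure either. Under the block 4 members were called higher, MFN1, MFN2, DNM1L and MFF, and MUL1 remained the only one called lower, beside 19.5% of all genes higher and 17.8% lower.

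The fusion genes were at or slightly above their siCTR levels. MFN1 (chr3:179347709-179394936, plus strand) had 86.6, 95.3 and 88.8 CPM in siCRP2, against 80.1, 83.2 and 74.4 CPM in siCTR. Every siCRP2 library was above every siCTR library, by a narrow margin. Its log2 fold change was 0.19 (SE 0.0862, 95% interval 0.005 to 0.37), which missed the threshold (adjusted p = 0.136) and passed it with the code as a block (adjusted p = 0.0152). MFN2 (chr1:11980181-12015211, plus strand) had 181.6, 203.6 and 212.2 CPM in siCRP2, against 167.7, 173.8 and 197.5 CPM in siCTR. The groups overlapped, though the siCRP2 library was the higher of each pair with the same code. The log2 fold change was 0.15 (SE 0.0914, interval -0.04 to 0.34, adjusted p = 0.273), and 0.0493 was the adjusted p with the block. OPA1 (chr3:193593144-193697811, plus strand) had 130.5, 130.5 and 128.1 CPM in siCRP2, against 147.6, 132.4 and 114.5 CPM in siCTR. The siCRP2 values lay within the wider siCTR spread, and the difference changed sign between codes. Its log2 fold change was -0.02 (SE 0.0935, interval -0.22 to 0.18, adjusted p = 0.910), which puts the siCRP2 level between 0.860 and 1.13 times the siCTR level.

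Because MFN1 and MFN2 do related work, their ratio within each library was also compared. The log2 ratio of MFN1 to MFN2 averaged -1.14 ± 0.102 in siCRP2 and -1.18 ± 0.198 in siCTR (SD, n = 3 each), a difference of 0.04 in CPM that are not scaled by length. The two-sided exact permutation test gave p = 1, where 0.1 is the smallest p that 3 against 3 libraries allow. Without siCTR 1311 the difference turned to -0.08.

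DNM1L, the GTPase of fission, was the member with the largest rise. It lies at chr12:32679200-32745650 (plus strand) and had 134.1, 142.1 and 144.0 CPM in siCRP2, against 116.5, 115.8 and 114.2 CPM in siCTR. The groups did not overlap, and the siCTR libraries lay within 3 CPM of each other. The log2 fold change was 0.28 (SE 0.0796, 95% interval 0.11 to 0.45, adjusted p = 0.0159), or 1.21-fold, and 6.2e-05 was the adjusted p with the block. The call was lost without siCRP2 0611 (adjusted p = 0.109), without siCRP2 1311 (0.140) and without siCTR 0611 (0.0545).

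The fission receptors MFF and FIS1 had smaller positive differences. MFF (chr2:227325151-227357833, plus strand) had 53.27, 51.16 and 51.94 CPM in siCRP2, against 46.53, 46.18 and 44.02 CPM in siCTR. Its groups were apart, and its log2 fold change of 0.19 (SE 0.0904, interval 0.0026 to 0.38) passed the threshold only with the block (adjusted p = 0.142 without it and 0.0248 with it). FIS1 (chr7:101239458-101252316, minus strand) had 60.8, 65.6 and 63.7 CPM in siCRP2, against 53.4, 61.0 and 59.2 CPM in siCTR. The siCRP2 library was higher in 3 of 3 codes, but siCRP2 0412 lay below siCTR 0611, so the groups overlapped. The log2 fold change was 0.13 (SE 0.0906, interval -0.06 to 0.32, adjusted p = 0.334, with the block 0.140).

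**Figure D2:**
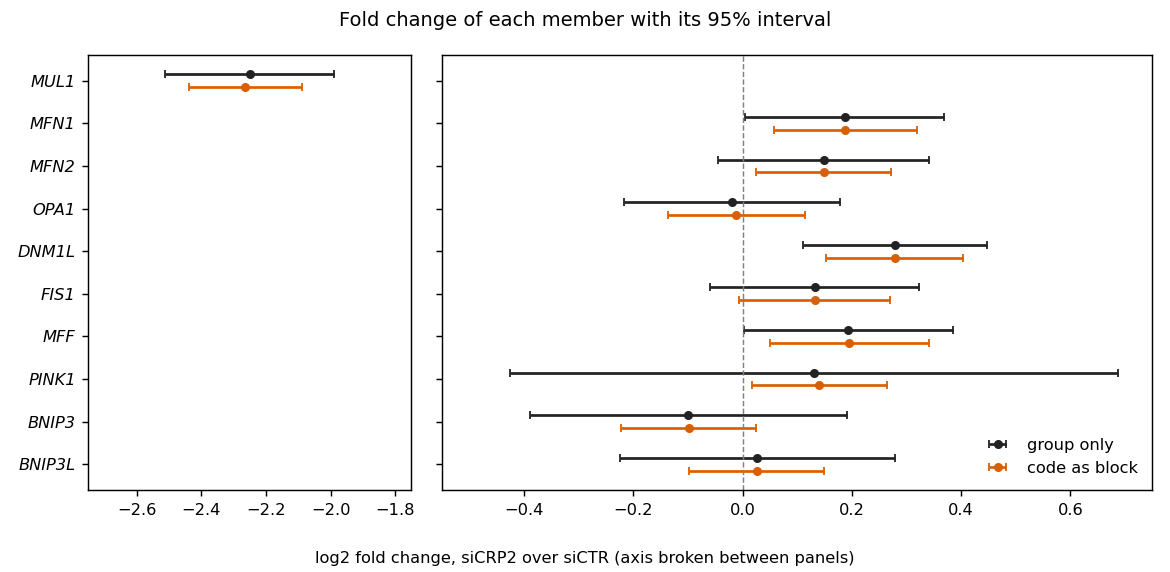
Log2 fold change of siCRP2 over siCTR for each of the 10 genes, with its 95% interval, from the fit with group alone (black) and with the code as a block (orange). The axis is broken so that MUL1, drawn as a description, has a panel of its own. The other 9 point estimates lie between -0.10 and 0.28, and the block narrows the interval of PINK1 the most. The block intervals rest on a spread shared over genes, not on each gene's own pairs.

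PINK1 varied more between codes than between groups. It lies at chr1:20633458-20651511 (plus strand), 125306 bases from MUL1, and had 198.3, 277.1 and 272.5 CPM in siCRP2, against 170.9, 233.1 and 279.9 CPM in siCTR. The 0412 library was the lowest of either group. The log2 fold change was 0.13 (SE 0.223, 95% interval -0.43 to 0.69, adjusted p = 0.742), an interval that spans 0.744 to 1.61 times the siCTR level. With the block the interval narrowed to 0.02 to 0.26 (adjusted p = 0.0664). That width rests on a spread shared over genes. The log2 differences between PINK1 libraries of the same code were 0.21 for 0412, 0.25 for 0611 and -0.04 for 1311.

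The receptor genes BNIP3 and BNIP3L did not move in a shared direction. BNIP3 (chr10:131967684-131981967, minus strand) had 373.5, 371.8 and 285.5 CPM in siCRP2, against 325.0, 435.2 and 343.8 CPM in siCTR. The siCRP2 library was higher for code 0412 and lower for the other codes. Its log2 fold change was -0.10 (SE 0.132, interval -0.39 to 0.19, adjusted p = 0.660, with the block 0.239). BNIP3L (chr8:26383054-26505636, plus strand) had 305.5, 281.8 and 229.9 CPM in siCRP2, against 282.1, 290.9 and 228.8 CPM in siCTR. Its groups overlapped almost wholly, with the 1311 libraries lowest in both, and its log2 fold change was 0.03 (SE 0.117, interval -0.22 to 0.28, adjusted p = 0.902, with the block 0.812). The log2 ratio of BNIP3 to BNIP3L, in CPM not scaled by length, averaged 0.33 ± 0.0579 in siCRP2 and 0.46 ± 0.219 in siCTR (SD, n = 3 each). That difference of -0.12 had an exact two-sided permutation p of 0.4. It ran from -0.25 to -0.06 when each library in turn was left out, the largest being without siCTR 0412 and the smallest without siCTR 1311.

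Per kilobase of merged exon, the mitophagy genes were the most abundant of the set. BNIP3 averaged 84.8 CPM per kilobase in siCRP2 and 90.9 in siCTR, BNIP3L 65.7 in siCRP2 and 64.4 in siCTR, and PINK1 51.6 in siCRP2 and 47.2 in siCTR. The fission receptor FIS1 came next with 35.4 in siCRP2 and 32.3 in siCTR. MFN2 averaged 19.5 in siCRP2 and 17.6 in siCTR, OPA1 14.3 in siCRP2 and 14.5 in siCTR, and MFN1 15.2 in siCRP2 and 13.3 in siCTR. DNM1L averaged 17.4 in siCRP2 and 14.3 in siCTR, and MFF, the least abundant in siCTR, 8.43 in siCRP2 and 7.37 in siCTR. MUL1 stood at place 10 in siCRP2, with 4.63 CPM per kilobase, and at place 5 in siCTR, with 22.02. Neighbours in the siCTR order whose ranges over libraries overlapped were BNIP3L with PINK1 and OPA1 with DNM1L. With the longest transcript as the length, MFN2 stood above MUL1 in siCTR, and the ranges of PINK1 with FIS1 and of MUL1 with OPA1 overlapped too.

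**Figure D3:**
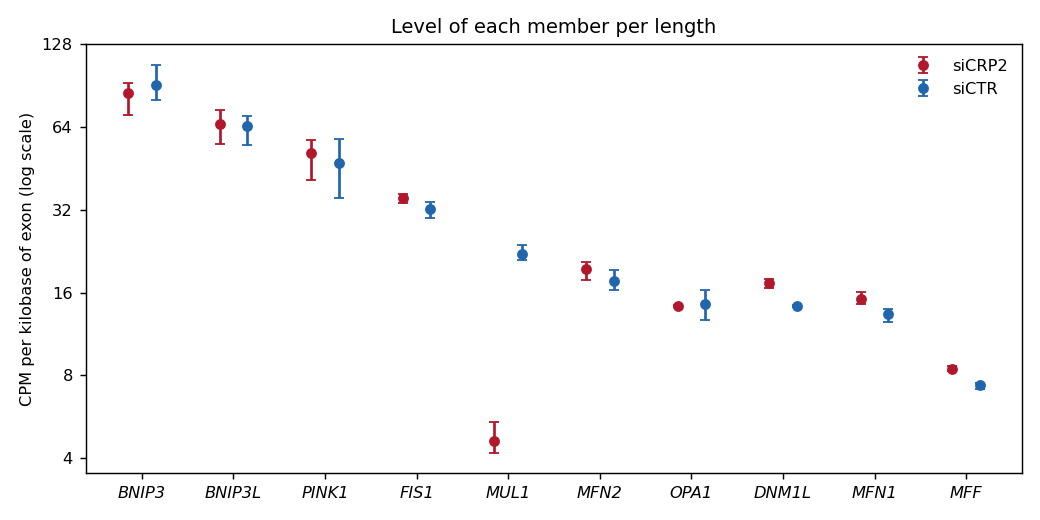
Level of each gene in CPM per kilobase of merged exon, on a log scale, ordered by the siCTR mean, with siCRP2 (red) left of siCTR (blue). Points are means and bars run from the lowest to the highest of 3 libraries. MUL1 is at 4.63 in siCRP2, below MFF at 8.43, and at 22.02 in siCTR, above MFN2 at 17.6.

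Several members share bases with other annotated genes, and whether the counting used strand is not given in the sources used here, so reads of opposite genes may not be separated. PINK1-AS shares 1907 exonic bases with PINK1 on the opposite strand and had 6.03, 7.04 and 5.89 CPM in siCRP2, against 8.61, 9.03 and 9.38 CPM in siCTR. It fell by 0.51 on the log2 scale (SE 0.156, adjusted p = 0.0224), in the opposite direction to the point estimate of PINK1. That call was lost without siCRP2 0412 (adjusted p = 0.0657), siCRP2 1311 (0.0924), siCTR 0611 (0.0678) or siCTR 1311 (0.0550). PNMA2 shares 330 exonic bases with BNIP3L and had a log2 fold change of 0.03. MFF-DT, which shares 507 bases with MFF, averaged 0.469 CPM in siCRP2 and 0.653 CPM in siCTR, and ENSG00000275854, which shares 202 bases with DNM1L, 0.0936 CPM in siCRP2 and 0.207 CPM in siCTR. Both stayed under 1 CPM in every library. The table also holds 44 genes named as BNIP3 pseudogenes, whose counts summed to 0.484% to 0.897% of those of BNIP3 in each library. Of those tested, BNIP3P1 averaged 1.98 CPM in siCRP2 and 2.43 CPM in siCTR. BNIP3P5, MFN1P1, MFFP2 and MFFP3 were below the CPM of 3 counts in every library. YARS2, chosen after its values were seen, overlaps the bounds but no exon of DNM1L and rose by 0.33 on the log2 scale (adjusted p = 0.0456), a call lost without siCRP2 0412, 0611 or 1311 or siCTR 0611 or 1311 (adjusted p 0.105 to 0.190).

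Genes near MUL1 on chromosome 1 had smaller differences. Of 9 other tested genes within 300 kb, 2 were lower in siCRP2, where 11.5% of all genes were called lower. None was higher by edgeR's quasi-likelihood test, by its exactTest or by DESeq2, and 0 were higher at an unadjusted p under 0.05. The nearest, CAMK2N1, a kinase inhibitor gene, averaged 13.1 CPM in siCRP2 and 10.6 CPM in siCTR (log2 fold change 0.29, adjusted p = 0.257). CDA, the cytidine deaminase gene between MUL1 and PINK1, had a log2 fold change of -0.14 (adjusted p = 0.876), and DDOST, a subunit of the oligosaccharyltransferase, 0.09 (adjusted p = 0.488). The lower genes were PINK1-AS and the translation factor gene EIF4G3, which averaged 127 CPM in siCRP2 and 186 CPM in siCTR (log2 fold change -0.56, adjusted p = 0.00088). With the code as a block 3 genes became higher, CAMK2N1 (adjusted p = 0.0152), KIF17 (0.0303) and SH2D5 (3.9e-05).

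**Figure D4:**
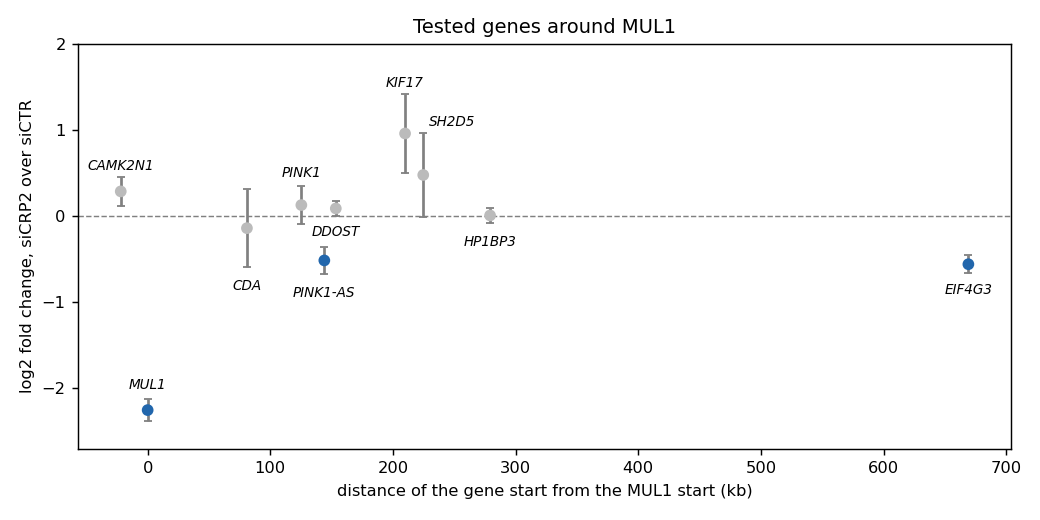
Log2 fold change of siCRP2 over siCTR (± SE) for MUL1 and the 9 other tested genes within 300 kb of it, against the distance of each gene's start from that of MUL1 in kb. Blue marks genes called lower and grey those called neither way (adjusted p threshold 0.05). MUL1 is at -2.25 and the next lowest, EIF4G3, whose far start is drawn although its near end is within the window, at -0.56.

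The pattern of MUL1 over the 6 libraries was closest to genes outside the set. By Euclidean distance of centred log2 CPM among 10445 protein-coding genes of at least 5 CPM, the closest were PKM (0.188), UXT (0.206), GLTP (0.278), HLA-F (0.282) and TP53INP2 (0.308), while the other 9 members lay at 2.68 to 3.11. PKM encodes pyruvate kinase of glycolysis and averaged 815 CPM in siCRP2 and 3604 CPM in siCTR. TP53INP2 encodes a protein of autophagosome formation and averaged 16.98 CPM in siCRP2 and 79.15 CPM in siCTR. The distance depends mostly on the size of the group difference, which was -2.27 to -2.14 in those 5 genes.

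Promoters of 300 bases from RefSeq (GRCh38.p14) were at hand for 8 members. None held a CArG box, the motif bound by SRF, on either strand, and 1.29% of 35116 promoters did. So rare a motif would be missing from most sets of 8 promoters, and bases beyond the 300 were not searched. Its absence here therefore says nothing about SRF sites of these genes. The letters ACGTG, the core bound by HIF proteins, were found on either strand for BNIP3 and MFF, and in 21.4% of all promoters. These matches are descriptions of letters only.

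To set the members in their pathway, 144 further genes in 9 lists were examined, of which 143 were tested. Of these 25 were lower and 29 higher in siCRP2, beside 11.5% and 12.5% of all genes, with a median log2 fold change of 0.10 beside -0.02 for all genes. With the block 37 were lower and 51 higher, where the calls over all genes also became more frequent, at 17.8% lower and 19.5% higher. The shares over all genes include rows with few counts. Among the 11751 protein-coding genes of 1 CPM or more that served as background for the word, 2137 were lower and 2785 higher without the block. The counts of the lists, together or singly, are therefore descriptions and are not read as an excess of calls. Genes beyond the 4 of smallest p in a list are named after their values were seen, with the number of the 13 alternatives in which the call held. The count of higher genes dropped to 16 without siCRP2 0611, 15 without siCRP2 1311 and 18 without siCTR 0611.

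Other fission factors moved in both directions. Of 11, 3 were lower and 2 higher (median log2 fold change -0.09). MIEF1, an adaptor that recruits DNM1L, had 31.7, 33.8 and 34.7 CPM in siCRP2, against 54.2, 48.9 and 56.5 CPM in siCTR. It fell by 0.67 (SE 0.0987, adjusted p = 9.0e-05), while DNM1L rose by 0.28. DNM2, a further dynamin, fell by 0.26 (8 of 13). MTFR1 fell by 0.48 and its relative MTFR2 rose by 0.99, both from a family of fission regulators. SPIRE1, an actin nucleator, rose by 0.45, a call lost without siCRP2 1311 (adjusted p = 0.0708).

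Of 22 genes of fusion, OPA1 processing and cristae, 4 were lower and 6 higher (median 0.08). CHCHD3 (MIC19), a subunit of the MICOS complex that shapes cristae, had 23.4, 31.4 and 30.8 CPM in siCRP2, against 82.2, 82.8 and 91.6 CPM in siCTR. Its log2 fold change of -1.58 (SE 0.112, adjusted p = 5.1e-08) was the largest fall in this list, and its groups lay far apart. MIGA1, which aids fusion, rose by 0.73, the inner membrane protease AFG3L2 by 0.45 and the outer membrane protein MTX2 by 0.46. MIGA2, the relative of MIGA1, rose by 0.60 (13 of 13). The prohibitins parted, PHB1 rising by 0.27 (10 of 13) while PHB2 fell by 0.40 (13 of 13). The protease gene PARL rose by 0.46 (5 of 13), ROMO1 fell by 0.40 (13 of 13) and LETM1 fell by 0.35 (7 of 13). The OPA1 proteases YME1L1 and OMA1 had log2 fold changes of 0.06 (adjusted p = 0.680) and -0.32 (adjusted p = 0.148). With the code as a block OMA1 passed the threshold as lower (adjusted p = 0.0115), and its groups did not overlap.

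Of 16 other mitochondrial ubiquitin ligases and deubiquitinases, 1 was lower and 4 higher (median 0.15). Without siCRP2 0611 or without siCRP2 1311 the list had 1 lower and 1 higher. MARCHF5, another outer membrane ligase that acts on fusion and fission proteins, had 82.2, 88.5 and 90.9 CPM in siCRP2, against 61.5, 70.2 and 63.8 CPM in siCTR. It rose by 0.42 (SE 0.0888, adjusted p = 0.0020), without overlap. PPTC7, a phosphatase that restrains mitophagy by BNIP3 and BNIP3L, rose by 0.33, and the deubiquitinase USP15 by 0.32. Both calls were lost without siCRP2 0611 (adjusted p = 0.0562 and 0.0728) or siCRP2 1311 (0.0751 and 0.0884). RNF185 fell by 0.32, a call lost without siCRP2 0412, siCRP2 1311, siCTR 0611 or siCTR 1311 (adjusted p 0.0667 to 0.0821). SMURF1 rose by 0.24 (5 of 13).

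Mitophagy receptors and adaptors were split, with 4 of 18 lower and 4 higher (median -0.05). BCL2L1, the gene of the survival protein BCL-XL, had 239.3, 312.9 and 304.7 CPM in siCRP2, against 521.5, 523.3 and 560.3 CPM in siCTR, and fell by 0.91 (SE 0.101, adjusted p = 6.0e-06). BCL2L13, a receptor of the outer membrane, fell by 0.68 and NIPSNAP2, an eat-me signal, by 0.72. CALCOCO2 (NDP52), an autophagy adaptor, rose by 0.51 (SE 0.0871, adjusted p = 0.00032). The groups did not overlap for any of these 4 genes. NIPSNAP1 fell by 0.36 (11 of 13), while TBK1, a kinase of autophagy adaptors, rose by 0.45 (13 of 13), the receptor gene FUNDC1 by 0.40 (12 of 13) and MCL1 by 0.35 (7 of 13).

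BNIP3 and BNIP3L are known as hypoxia-induced genes. In a list of 20 other genes of the HIF pathway, its hydroxylases and its targets, 10 were lower and 2 higher (median -0.35). EGLN1, an oxygen-sensing prolyl hydroxylase, averaged 66.6 ± 6.15 CPM in siCRP2 and 120 ± 2.43 CPM in siCTR (SD, n = 3 each). It fell by 0.85 (adjusted p = 2.9e-06). The hormone gene ADM fell by 1.24, HIF1A itself by 0.81 and the lactate dehydrogenase gene LDHA by 0.49. CA12 had the largest fall of the list, 2.61 (adjusted p = 0.0266, 9 of 13). EGLN3 fell by 0.95 (13 of 13), NDRG1 by 0.55 (11 of 13) and MXI1 by 0.38 (8 of 13). SLC2A1 fell by 0.32 (12 of 13) and EPAS1 by 0.30 (11 of 13). VHL, of the ligase that degrades HIF proteins, rose by 0.40 (13 of 13) and ARNT by 0.26 (3 of 13). BNIP3 and BNIP3L, with -0.10 and 0.03, passed no test in either direction. The count of lower genes was 6 without siCRP2 0412 and 6 without siCRP2 1311, and 14 with the block.

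Of 14 tested genes of the TOM import complex and the VDAC channels, 2 were lower and 3 higher (median 0.10). TOMM22, the import receptor, fell by 0.77 (SE 0.106, adjusted p = 4.6e-05), with 24.97, 29.01 and 25.29 CPM in siCRP2, against 47.71, 45.42 and 42.00 CPM in siCTR. TOMM40L fell by 0.48, while the channels VDAC3 and VDAC1 rose by 0.50 and 0.29. The VDAC1 call was lost without siCRP2 0412, 0611 or 1311 or siCTR 0611 (adjusted p 0.0630 to 0.130). In each of these fits the list had 1 higher gene in place of 3. MTCH2 rose by 0.26 (6 of 13).

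Of 13 mitochondrial transport genes, 1 was lower, 4 were higher and 8 were called neither way (median 0.24). ARMCX1 rose by 0.50 and ARMCX3 by 0.40, both outer membrane armadillo proteins, TRAK1, a motor adaptor, by 0.33 and ARMC10 by 0.34. SYNJ2BP fell by 0.38 (8 of 13). The TRAK1 call was lost without siCRP2 0611 or 1311, and that of ARMC10 without siCRP2 0412 or 0611 or siCTR 0611 or 1311 and with edgeR's filterByExpr (adjusted p = 0.0546). Of 16 biogenesis genes, 3 were higher (median 0.16), TFAM, which packages mitochondrial DNA, by 0.37 (adjusted p = 0.0044), SSBP1 by 0.27 and TWNK by 0.32. The SSBP1 call was lost in 9 of the 13 alternatives and so was that of TWNK, including the test of edgeR that the study names (adjusted p = 0.0623 and 0.0637). Of 13 mitochondrially encoded mRNAs, 1 was called higher (median 0.20), MT-ND3, which rose by 0.32 and lost its call without siCRP2 0611, siCRP2 1311, siCTR 0412 or siCTR 0611 (adjusted p 0.0673 to 0.246) and with filterByExpr (0.0671). With the block 7 of the 13 were higher. In both lists 0 genes were lower by edgeR's quasi-likelihood test, at an unadjusted p under 0.05, by exactTest or by DESeq2. With the block, and without siCTR 0412, 1 biogenesis gene was lower. It was PPARGC1A in both, the gene of a coactivator of mitochondrial biogenesis (log2 fold change -0.83, adjusted p = 0.387, with the block 1.4e-10). It had 4.44, 5.73 and 9.55 CPM in siCRP2, against 5.33, 12.52 and 17.98 CPM in siCTR. The groups overlapped, and the pair of code 0412 differed far less than the other pairs. The block p-value of PPARGC1A is therefore not read as a measure of how far its own pairs vary.

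**Figure D5:**
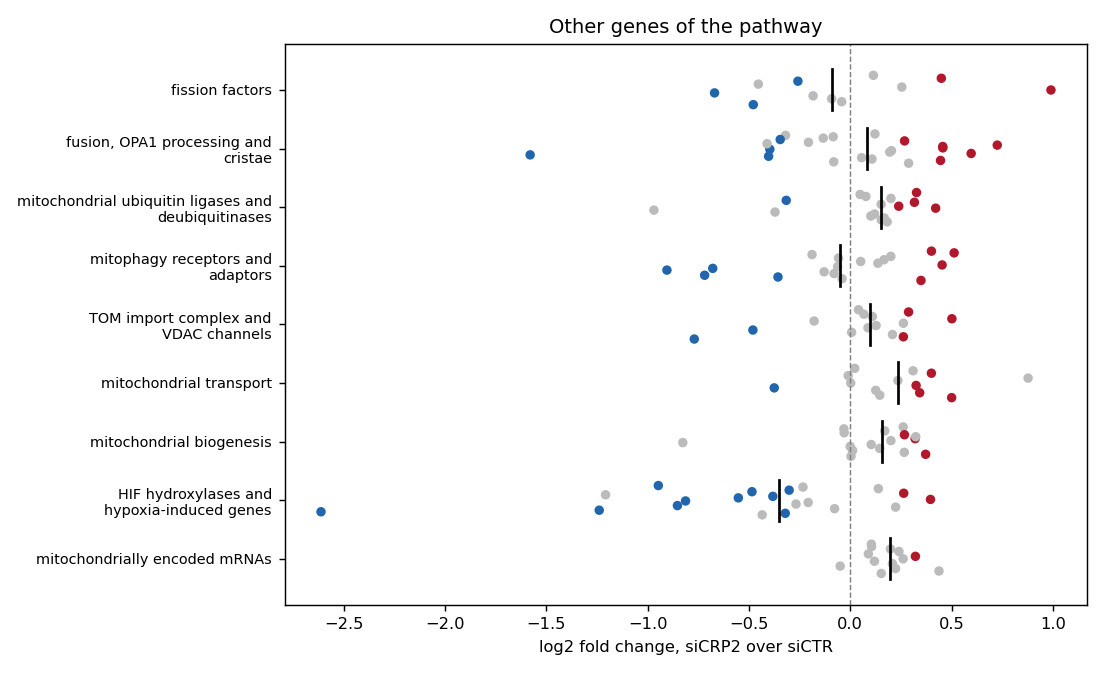
Log2 fold change of siCRP2 over siCTR for each tested gene of the 9 pathway lists, 1 point per gene. Blue marks genes called lower, red those called higher and grey those called neither way (adjusted p threshold 0.05), and the black bar is the list's median. The list medians run from -0.35 for the HIF hydroxylases and hypoxia-induced genes to 0.24 for mitochondrial transport.

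The word GCCTCAC was in the 3' UTR of 6 of the 25 pathway genes called lower (MIEF1, DNM2, BCL2L1, SYNJ2BP, EGLN1 and ADM). It was in 3 of the 29 called higher (USP15, CALCOCO2 and TWNK) and 6 of the 89 called neither way. Over the background genes the shares were 26.5%, 5.13% and 9.12%. As the word was picked from these same fold changes, nothing about the pathway is read from the counts. CHCHD3, which fell the most among the fusion and cristae genes, was not among the genes with the word.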

How the data were processed

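The authors deposited raw counts for each gene, taken from STAR's own gene count after alignment of paired-end reads to the human genome (GRCh38 and hg38 in the submitters' processing notes). For the STAR version, annotation and strand setting, nothing is given in the sources used here. Columns were assigned to siCRP2 or siCTR by their names. Genes with a count in 2 or 3 libraries of either group (23806) were scaled by TMM and tested for group with edgeR 4.0.16 (R 4.3.3) by robust quasi-likelihood, with Benjamini-Hochberg adjustment over all of them. The test was tried first on simulated libraries, drawn independently and with larger fold changes than those of the members besides MUL1. That trial does not cover libraries paired by code or differences as small as theirs. The code in the column names pairs the libraries, since deviations from the group mean over 10787 genes correlated at 0.712, 0.452 and 0.737 for the same code and at most at 0.0984 otherwise. At these depths 3 counts are worth 0.0768 to 0.175 CPM, and intervals on fold changes come from the edgeR fit. Members and lists were chosen with earlier results of these data known. Named genes were all members, tested genes that share exons with or are named after them, up to 4 genes of smallest p per list, the 5 closest to MUL1, and CSRP2. Gene models are from GENCODE 44. Alternatives used edgeR's exactTest, DESeq2 1.42.0, other scaling and filters, the block and each library left out.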

Additional observations from a re-analysis of the deposited data

How the results depend on the processing

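MUL1 was lower in each of the 13 alternatives, a description only, since it was picked by its values in these same libraries. With the code as a replicate block, 4229 genes were lower and 4644 higher in place of 2735 and 2987, 4 members were higher in place of 1, and 51 listed pathway genes were higher in place of 29. Leaving out each library in turn, the count of all genes higher ran from 1933 to 3128, that of members higher from 0 to 1 and that of listed pathway genes higher from 15 to 29. The difference in the MFN1 to MFN2 log2 ratio ran from -0.0761 (without siCTR 1311) to 0.0967 in those fits. Log2 fold changes near 0 changed sign. In the fits without 1 library, BNIP3 ran from -0.192 to 0.0386 (positive without siCTR 0611), OPA1 from -0.111 to 0.0715 (positive without siCTR 0412), PINK1 from -0.0412 to 0.305 (negative without siCTR 0412), and BNIP3L from -0.0738 to 0.113 (negative without siCRP2 0412, siCRP2 0611 or siCTR 1311). BNIP3L was also at -0.0173 with edgeR's filterByExpr. None of these values passed the test, and the cause was not tested. With the longest transcript as length, the highest member stood 9.28 times above the lowest in siCTR, in place of 12.3 times. Among 35 other named genes, 400 of 455 values kept direction and call, 55 kept the direction and lost the call, and 0 changed direction. Most of those 35 were picked for small p-values in these same libraries, so the count is no measure of stability for other genes. It leaves out the pathway genes named after their values were seen, whose calls held in as few as 3 of the 13 alternatives (ARNT). The median log2 fold change of all genes moved by under 0.1 in each alternative. With 3 libraries a group, the fit with group alone gave SEs of 0.0796 to 0.223 for the 9 genes besides MUL1. Differences of the size seen for them are at the edge of what that fit resolves. With the block their SEs ran from 0.0627 (BNIP3L) to 0.0741 (MFF). Those SEs rest on a spread shared over genes and do not show that such small differences are resolved. BNIP3 had a block SE of 0.0629, while its log2 differences were 0.20 for 0412, -0.23 for 0611 and -0.27 for 1311.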
